A study of Homo sapiens with 4 samples.

Results

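The cadherin and protocadherin genes are a superfamily of cell surface adhesion molecules, and this account covers N6-methyladenosine (m6A) in their messenger RNA in HEK293T cells with and without ascorbic acid. Members were all sites whose gene name, as the authors assigned it, is a protocadherin (PCDH), a numbered cadherin (CDH), FAT1 to FAT4, DCHS1 or DCHS2, or CELSR1 to CELSR3, leaving out hyphenated names. A site was tested if all 4 libraries listed it with at least 20 reads in each, which held for 246 member sites of 78509 tested sites in all. The member sites lie in 15 genes, out of 10782 genes with a tested site. A further 10 member genes had sites in at least 1 library but none that could be tested, and the RefSeq gene table holds 113 symbols under the same naming rule.

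HEK293T is a human embryonic kidney line that carries the SV40 large T antigen. Cells of both groups are listed with 24 h of seeding and with medium renewed every 6 h. Ascorbic acid is vitamin C, a reducing agent and a cofactor of iron-dependent dioxygenases, among them the m6A demethylases. The treated cells were given it for 36 h, at a dose not given in the sources used here. Both groups, ascorbic acid and control, are labelled as wild type in genotype and have 2 libraries each, numbered 1 and 2. The labels do not say that these came from separate cultures, so p-values cover only the spread between these samples, which may be technical.

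Cadherins bind their like on the neighbouring cell through repeated extracellular domains that calcium holds stiff. Classical cadherins such as N-cadherin connect to actin through catenins. The CELSR proteins and the giant FAT and Dachsous cadherins orient cells within a sheet, in the pathway called planar cell polarity, and protocadherins are best known for sorting and self-recognition of neurons. m6A is the most common internal modification of messenger RNA and marks transcripts for altered splicing, translation and decay. GLORI deaminates unmethylated A, which the sequencer then reports as G, and leaves m6A unchanged as A. The percent of A plus G reads with A at a position is thus its m6A level.

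The 4 libraries listed between 132989 and 144171 sites, with 22592887 to 28562744 A plus G reads over these sites. No listed site had under 15 reads, 5 A reads or a level of 10%, so losses to below 10% do not appear among the tested sites. On few reads the minimum of 5 A reads sets a floor above 10%, so smaller losses can also drop out there. Of the marker genes examined for this line, 8 of 10 had a listed site, among them VIM and CDH2, whereas 1 of 8 markers of differentiated kidney (LRP2) and 2 of 8 markers of other cells (COL1A1 and ACTA2) did. CDH1, CDH5 and EPCAM, which mark epithelial and endothelial cells, were not listed in any library. The unconverted share of the 18 member genes with a deposited conversion rate, which adds to every apparent m6A level, had a median of 4.72% and 4.76% in the ascorbic acid libraries and of 4.73% and 6.39% in the control libraries. Control library 2 was the highest of the 4 in 17 of the 18 genes, and its part in the results was tested only by the correction and the left-out library given at the end.

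Across the superfamily, m6A was lower with ascorbic acid. The median level of the 246 sites was 43.3% and 41.3% in ascorbic acid libraries 1 and 2, against 51.9% and 53.9% in control libraries 1 and 2; in what follows each pair of values keeps this order of libraries. The 2 ascorbic acid medians lay below both control medians, averaging 42.3 ± 1.46% against 52.9 ± 1.43% (SD, n = 2 each), a difference of -10.6 percentage points. The median of the changes at single sites was smaller, at -7.76 points for members and -4.89 points for all tested sites. Over all tested sites of the series the means were 33.9 ± 0.113% with ascorbic acid and 40.9 ± 1.23% in control, a difference of -7.04 points. Levels were thus higher at the member sites in both groups. Member sites also had fewer reads, which raises the lowest level that can be listed, and the part of this floor was not tested.

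Of the 246 member sites, 69 fell (28.0%), none rose and 177 did not pass the test (edgeR, with a quasi-likelihood test of the A and G counts and Benjamini-Hochberg adjusted p under 0.05 over all tested sites). The share of all tested sites called lower was 25.7%, and that called higher 0.219%, so the share of falls among the members was near the background. At an unadjusted p under 0.05, 1 member site was higher, against 0.571% of all sites. The falls ran from -51.7 to -4.51 percentage points. At 141 member sites each ascorbic acid value was lower than each control value (57.3%; 55.4% of all tested sites), and at 12 each was higher (4.88%; 4.22% of all). The median change in log2 odds of A, ascorbic acid over control, was -0.56 for members and -0.41 for all sites.

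**Figure D1:**
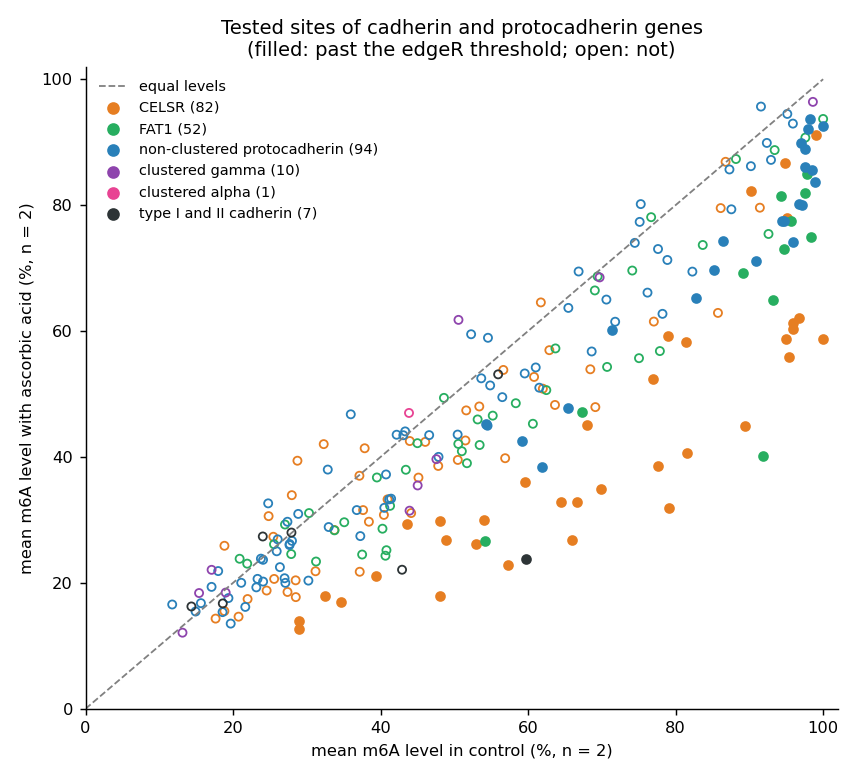
Mean m6A level (% of A plus G reads) of each of the 246 tested member sites with ascorbic acid (vertical axis, n = 2) against control (horizontal axis, n = 2), coloured by subfamily, with filled points past the edgeR threshold. Most points lie under the dashed line of equal levels, and the 69 filled points all lie under it, most of them from the CELSR genes, FAT1 and the non-clustered protocadherins.

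Reads per site set how small a change could be seen. The median member site had 59.5 and 68 reads in the ascorbic acid libraries and 54 and 57.5 in the control libraries, compared with 102 and 118, and 97 and 100, over all sites. A level of 50% has a 95% Wilson interval of 29.9 to 70.1% on 20 reads and of 40.4 to 59.6% on 100 reads, for counting error only. Single member sites were thus measured less precisely than typical sites of the series.

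Adding up the A and G reads over all tested positions of a gene gave a finer measure. Of the 15 genes, 7 fell, none rose (nor was any higher at an unadjusted p under 0.05, against 0.454% of all genes) and 8 did not pass; among all 10782 genes 56.7% were called lower and 0.297% higher. The summed values of the groups did not overlap in 11 genes, 10 with the ascorbic acid libraries lower (76.7% of all genes) and 1, PCDHA4, with them higher (1.75% of all genes). Among genes with at least 3 tested sites the falls were 6 of 10 members, with a background of 68.2%. The median change in log2 odds was -0.57 for the member genes and -0.39 for all genes. Whether member genes differ from one another was not tested.

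**Figure D2:**
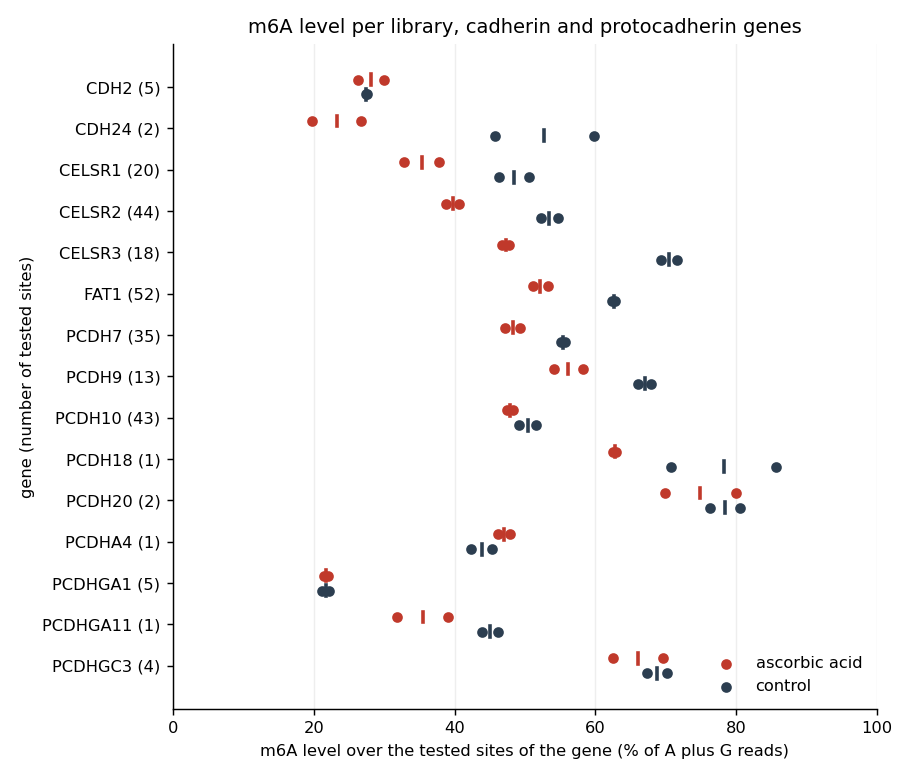
m6A level (% of A plus G reads, all tested positions of a gene together) in each library, with ascorbic acid (red) above control (dark) in each row; points are libraries, vertical strokes are means of 2, and the number of tested sites follows each gene name. The 3 CELSR genes, FAT1, PCDH7, PCDH9 and CDH24 show ascorbic acid points clear to the left of control, while CDH2, PCDH20, PCDHGA1 and PCDHGC3 overlap.

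The CELSR genes, human counterparts of Drosophila Flamingo, encode receptors that join cadherin repeats to a G protein-coupled receptor core and bridge neighbouring cells in planar cell polarity. They held 82 tested sites, of which 35 fell (42.7%, against 25.7% of all tested sites) and none rose (0.219% of all). Whether this share differs from the rest of the series was not tested. All 3 genes fell in the summed test.

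CELSR3 (chr3:48636463-48662886, minus strand, GRCh38), best known for guiding axon tracts, stood at 47.8% and 46.7% with ascorbic acid, against 69.3% and 71.7% in control. The libraries of a group were within 3 points of each other and the groups were far apart, with means of 47.3 ± 0.726% against 70.5 ± 1.68% (SD, n = 2 each). The change in log2 odds was -1.42 (SE 0.12, edgeR adjusted p = 3.98e-09), and 9 of its 18 sites fell. A pair of sites 8 nt apart showed the largest falls among member sites with at least 50 reads in every library. At chr3:48639854, 3391 nt before the annotated 3′ end of the gene, the level was 45.6% and 44.3% with ascorbic acid, against 84.7% and 94.1% in control (adjusted p = 1.22e-10). At chr3:48639862 it was 41.1% and 40.2%, against 83.1% and 80.0% in control (adjusted p = 8.20e-09). Reads spanning both positions count at each, so these values are not independent.

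CELSR2 (chr1:109249539-109275751, plus strand) had the most falls of any member gene, 20 of 44 sites. Its summed level was 40.6% and 38.9% with ascorbic acid, against 52.3% and 54.7% in control, with no overlap. The means were 39.7 ± 1.24% and 53.5 ± 1.74% (SD, n = 2 each), and the change in log2 odds was -0.81 (SE 0.08, edgeR adjusted p = 6.66e-08). Site chr1:109258990 fell the most among its sites with at least 50 reads in every library, with 27.1% and 26.4% under ascorbic acid against 66.2% and 65.7% in control (adjusted p = 2.43e-07). Site chr1:109252614 stood at 56.7% and 60.6% with ascorbic acid, against a nearly full 96.0% and 93.8% in control (adjusted p = 2.77e-09).

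CELSR1 (chr22:46361174-46537620, minus strand), which acts in epithelial polarity and neural tube closure, had 37.8% and 32.9% with ascorbic acid, against 46.4% and 50.5% in control. The groups did not overlap and averaged 35.4 ± 3.51% and 48.4 ± 2.93% (SD, n = 2 each), a log2 odds change of -0.80 (SE 0.12, edgeR adjusted p = 8.10e-06). Although 6 of its 20 sites passed the test, all 20 had a lower mean level with ascorbic acid. Site chr22:46362647, 1473 nt before the annotated 3′ end, was at 35.1% and 34.7% with ascorbic acid, against 71.0% and 68.8% in control (adjusted p = 8.70e-07). Site chr22:46534418 was at 35.9% and 29.9%, against 62.9% and 65.9% in control (adjusted p = 4.13e-06). Its neighbour 6 nt away, chr22:46534412, did not pass, at 45.6% and 28.4% with ascorbic acid against 35.7% and 38.6% in control (adjusted p = 0.831), so a large fall and a site with overlapping groups lay within the same reads.

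FAT1 is a very large atypical cadherin, related to Drosophila Fat, that shapes actin at cell contacts and feeds into Hippo signalling. Its gene (chr4:186587794-186726696, minus strand) held all 52 tested sites of the FAT and Dachsous group. The summed level was 53.2% and 51.1% with ascorbic acid, against 62.4% and 62.8% in control. The control libraries were within 1 point of each other and both ascorbic acid libraries lay below them, at 52.2 ± 1.5% against 62.6 ± 0.309% (SD, n = 2 each), a log2 odds change of -0.62 (SE 0.08, edgeR adjusted p = 1.99e-06). At single sites 11 of 52 fell (21.2%, against 25.7% of all tested sites) and none rose, while 45 had a lower mean.

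Within FAT1, site chr4:186603766 was at 63.5% and 66.2% with ascorbic acid, against 93.4% and 92.9% in control (adjusted p = 1.73e-06). Site chr4:186611514 was at 47.2% and 47.1%, against 63.3% and 71.3% in control (adjusted p = 0.00492). That call was lost without ascorbic acid library 2 (adjusted p = 0.0771), without control library 2 (0.148) and with DESeq2 (0.0983). Another FAT1 position, chr4:186709677, named after its values were seen, had the largest fall of any member site. It stood at 37.9% and 42.4% with ascorbic acid, against 93.3% and 90.5% in control, on 21 to 33 reads per library (adjusted p = 1.89e-06). FAT1 held 135 of the 710 listed member sites. These included 4 of the 32 that both ascorbic acid libraries and neither control library listed, and 10 of the 23 with the opposite pattern. Such counts give no direction, since a site also drops out of a list through few reads, and their shares over the series are not given. FAT4, the partner of Dachsous, had 27 listed sites but only 1 in all 4 libraries, on 16 to 25 reads, at 84.0% and 81.8% with ascorbic acid against 87.5% and 89.5% in control. FAT3 and DCHS1 had 6 and 2 listed sites, and none was listed in all 4 libraries.

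The non-clustered protocadherins are lone genes, in contrast to the tandem clusters on chromosome 5, and mediate weak like-to-like adhesion and signalling at contacts. They held 94 tested sites, of which 22 fell (23.4%, near the 25.7% of all tested sites) and none rose. PCDH7 and PCDH9 fell in the summed test, and PCDH10, PCDH18 and PCDH20 did not pass.

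PCDH7, a protocadherin of developing brain that can bind protein phosphatase 1, had all of its 35 tested sites between -415 and 3936 nt from the annotated gene start (negative values lie upstream), in a gene that spans chr4:30720369-31146800 (plus strand). Its summed level was 49.4% and 47.2% with ascorbic acid, against 55.7% and 55.1% in control. The groups did not overlap, at 48.3 ± 1.53% and 55.4 ± 0.447% (SD, n = 2 each). The log2 odds change of -0.41 (SE 0.08, edgeR adjusted p = 0.000169) was close to the median of all genes, -0.39. With the log2 odds averaged over its sites (limma) the change was -0.81, and the median of all genes in that setting is not given. Of its sites 10 fell, led by chr4:30723662 at 39.7% and 37.2% with ascorbic acid against 60.7% and 63.0% in control (adjusted p = 5.32e-05).

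The 3 PCDH7 sites upstream of the annotated start did not pass the test. The site at chr4:30720176, 193 nt before that start, was the only member site inside a RefSeq promoter window (250 bases before to 50 after each start), and is therefore the only one whose surrounding sequence could be read. It is printed here to show what a site that stayed near full methylation in every library looks like. The sequence is the plus strand of chr4:30720162-30720190 from RefSeq (GRCh38.p14), with the called A in the middle and the central 5 bases in capitals.
PCDH7 site: ttgctcacctttGAACTgcaaagggatca
The level of this site was 97.0% and 92.0% with ascorbic acid, against 96.0% and 94.3% in control, on 25 to 35 reads (adjusted p = 0.985). Its central 5 bases are GAACT, a form of the motif that the m6A methyltransferase is known to prefer. Of the 2464 tested sites of the series inside promoter windows, all had A at the called position on the gene's strand and 90 (3.65%) had GAACT around it. The same 5 letters occur somewhere on either strand in 36.4% of the 35116 promoter windows of 300 bases, so a match somewhere in a window says little. That share is per window and is not comparable with the share at called positions. How often other A bases have GAACT around them was not counted.

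PCDH9 (chr13:66302834-67230336, minus strand), another brain protocadherin, had a summed level of 58.2% and 54.1% with ascorbic acid, against 66.1% and 67.9% in control. Both ascorbic acid values lay below both control values, with means of 56.2 ± 2.90% and 67.0 ± 1.21% (SD, n = 2 each) and a log2 odds change of -0.67 (SE 0.13, edgeR adjusted p = 0.000208). All 13 tested sites lay between 2090 and 5340 nt from the annotated start, and 5 fell. Site chr13:67225532 was at 75.6% and 66.7% with ascorbic acid, against 94.4% and 87.5% in control (adjusted p = 0.000665). That call was lost without ascorbic acid library 2 (adjusted p = 0.0549) and with limma (0.0502).

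PCDH10, which recruits the WAVE actin regulators and acts as a tumour suppressor in several tissues, had the deepest sites of the member genes with at least 3 tested, with a median of 121 and 142 reads in the ascorbic acid libraries and 110 and 118 in control. Its 43 sites (gene at chr4:133149294-133208606, plus strand) gave a summed level of 48.3% and 47.4% with ascorbic acid, against 49.2% and 51.6% in control. The 4 values lay within 5 points of each other and the groups did not overlap, at 47.9 ± 0.622% and 50.4 ± 1.69% (SD, n = 2 each). The log2 odds change of -0.15 (SE 0.07) did not pass (edgeR adjusted p = 0.0934). It passed without control library 1 (-0.22, adjusted p = 0.000819) and when sites 6 nt from another were left out (-0.18, adjusted p = 0.0369). At single sites 7 of 43 fell, among them chr4:133152680 at 75.6% and 79.2% with ascorbic acid against 92.1% and 97.3% in control (adjusted p = 3.50e-06), a site named after its values were seen. The deepest member site, chr4:133163068, had 401 and 445 reads with ascorbic acid and 406 and 503 in control. Its level was 28.4% and 25.4% with ascorbic acid, against 24.9% and 27.2% in control, so the groups overlapped and no change was detectable (adjusted p = 0.869). The site 47 nt further on, chr4:133163115, also named after its values were seen, fell to 88.7% and 89.0% with ascorbic acid, against 96.9% and 98.1% in control (adjusted p = 8.45e-07).

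PCDH20 and PCDH18 rested on few sites. PCDH20 had 69.9% and 80.0% with ascorbic acid, against 80.6% and 76.3% in control, over 2 sites (adjusted p = 0.580), and the groups overlapped. PCDH18 had 62.5% and 63.0%, against 85.7% and 70.7% in control, at 1 site (adjusted p = 0.131). PCDH17, PCDH19 (a gene of female-limited epilepsy) and the pseudogene PCDH8P1 had 4, 8 and 1 listed sites, none of them testable.

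**Figure D3:**
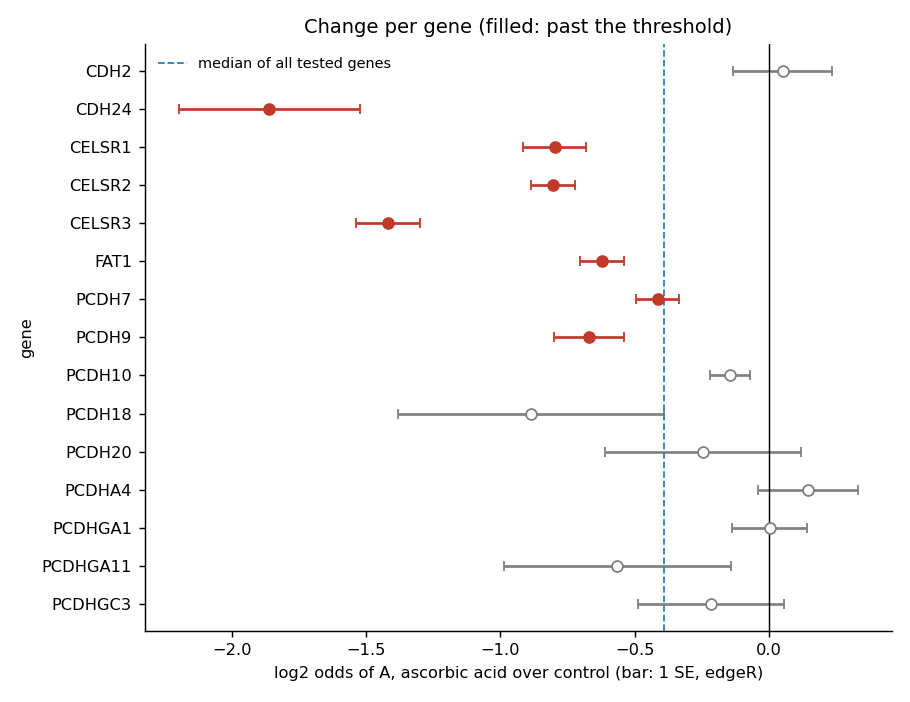
Change in log2 odds of A, ascorbic acid over control, for the summed reads of each of the 15 member genes. Bars are 1 SE, derived from the edgeR F statistic, and points are filled red where past the threshold. The dashed line is the median of all tested genes, -0.39. CDH24 and CELSR3 lie furthest left at -1.86 and -1.42, and CDH2 and PCDHGA1 lie at 0.05 and 0.00.

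The classical cadherins had little listed m6A. CDH2, N-cadherin, the adhesion molecule of neural and mesenchymal cells that anchors catenins, had 26.3% and 30.0% with ascorbic acid, against 27.5% and 27.4% in control, over 5 sites. The ascorbic acid libraries lay on either side of the control libraries, with means of 28.1 ± 2.58% and 27.5 ± 0.101% (SD, n = 2 each), a log2 odds change of 0.05 (SE 0.18, edgeR adjusted p = 0.827). The 5 sites lie close together at chr18:27952127-27952298 (minus strand), 19248 to 19419 nt before the annotated 3′ end, and none passed. CDH24, a type II cadherin that binds catenins, had 2 tested sites and is named after its values were seen. It stood at 19.8% and 26.8% with ascorbic acid, against 45.7% and 59.8% in control, a log2 odds change of -1.86 (SE 0.34, edgeR adjusted p = 9.56e-05). The libraries of each group were spread more widely than in the other genes that fell, but did not overlap between groups. Of its sites, chr14:23049156 fell, at 23.1% and 24.6% against 56.4% and 63.0% in control (adjusted p = 2.27e-05). CDH7 and CDH12 had 1 listed site each, as did CDH23, which is not a classical cadherin, and none was in all 4 libraries.

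The clustered protocadherins lie in 3 tandem arrays on chromosome 5. Each alpha and gamma transcript joins its own variable first exon to last exons that the whole cluster shares, and the choice of variable exon gives a neuron its identity. In the RefSeq table all 22 gamma genes end at 141512975 and all 15 alpha genes at 141012347, so a read near these ends cannot be assigned to 1 gene of a cluster. The files nevertheless give each site a single name. No beta gene had a listed site.

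The 5 sites named PCDHGA1 lie 1062 to 1494 nt before the shared gamma end, where 22 annotated gamma genes overlap. Their summed level was 21.5% and 22.0% with ascorbic acid, against 21.2% and 22.2% in control. The 4 libraries lay within 2 points and the groups overlapped, with a log2 odds change of 0.00 (SE 0.14, edgeR adjusted p = 0.993). The 4 sites named PCDHGC3, a C-type gamma gene expressed beyond neurons, had 69.6% and 62.5%, against 67.3% and 70.2% in control (adjusted p = 0.511). One of them, chr5:141478122, had the highest mean level of all member sites, at 97.7% and 95.1% with ascorbic acid against 100% and 97.2% in control. The single PCDHGA11 site was at 31.8% and 39.1%, against 46.2% and 43.9% in control (adjusted p = 0.275). Summed as 1 unit, the 10 gamma sites had 32.4% and 33.8% with ascorbic acid, against 34.4% and 37.1% in control, a log2 odds change of -0.17 (SE 0.14, edgeR adjusted p = 0.313), and none of the 10 passed. The alpha cluster had a single listed site, named PCDHA4, at chr5:140816658 under 4 annotated alpha genes. It stood at 46.2% and 47.8% with ascorbic acid, against 42.3% and 45.4% in control (adjusted p = 0.522), both ascorbic acid values being above both control values. PCDHGC4 had 9 listed sites, 1 of them in all 4 libraries on 16 to 25 reads, at 72.0% and 75.0% with ascorbic acid against 91.7% and 91.3% in control.

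How far levels moved was also read by starting level, with control library 1 used to sort the sites and the other libraries to measure them. Among the 35 member sites at 10 to 25% in control 1, the median was 19.9% and 18.8% with ascorbic acid, against 23.1% in control 2. Among the 64 sites at 50 to 75%, it was 49.6% and 46.7%, against 63.0% in control 2. The 79 sites at 25 to 50% had 31% and 28.6%, against 40.0% in control 2, and the 27 sites at 75 to 90% had 70.8% and 70.5%, against 83.3% in control 2. The ascorbic acid medians were thus below control 2 in every range. Control 2 had the highest unconverted share of the 4 libraries in 17 of 18 member genes, which adds to its apparent levels. Neither these ranges nor the sites at 90% or more were corrected for it. Both ascorbic acid libraries lay below control 2 at 54.3% of member sites in the 10 to 25% range (63.7% of all tested sites there) and at 59.5% in the 25 to 50% range (68.7% of all). The shares were 76.6% in the 50 to 75% range (75.7% of all) and 70.4% in the 75 to 90% range (83.9% of all), so the members' share was below that of all sites in 3 of these 4 ranges, a difference that was not tested.

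The 41 member sites at 90% or more in control 1 had medians of 83.7% and 82.4% with ascorbic acid, against 96.7% in control 2, and 37 of them (90.2%) were lower in both ascorbic acid libraries than in control 2. Over all 8197 such sites of the series the medians were 86.7% and 86.4%, against 95.8% in control 2, and 86.3% were lower in both, so the members' share was near the background. By gene, the 6 nearly full CELSR2 sites had medians of 59.8% and 63.4%, against 94.5% in control 2. The 11 of FAT1 had 80.6% and 79.2%, against 97.6% in control 2. The 6 of PCDH10 had 90.6% and 90.8%, against 97.7% in control 2. All of these CELSR2, FAT1 and PCDH10 sites were below control 2 in both ascorbic acid libraries, as were both sites of CELSR1 and both of CELSR3. The same held for 6 of 8 sites of PCDH7, 4 of 5 of PCDH9 and 0 of 1 of PCDHGC3. These differences between genes were not tested.

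Along the genes, tested sites came in a few dense stretches, defined as sites with gaps of at most 2000 nt between neighbours. In CELSR2, 31 sites lay 731 to 3747 nt from the annotated start, of which 11 fell, and 9 lay 326 to 1477 nt before the annotated 3′ end, of which 5 fell. Between them, at 8986 to 9451 nt, a stretch of 4 sites fell at every site, with medians of 20.8% and 18.2% under ascorbic acid against 31.6% and 42.5% in control. In PCDH10, 36 of 43 sites lay at 350 to 3561 nt, and 5 of the 36 fell. In FAT1 the 52 sites formed 7 stretches, and each held sites with a lower mean, 2 of 9 falling in the stretch nearest the start and 3 of 8 in the stretch 657 to 1297 nt before the 3′ end. A stretch of 4 FAT1 sites 8760 to 9219 nt before the 3′ end held no fall. All tested sites of PCDH7 and PCDH9 lay near the annotated start, and PCDH10 had none closer than 17923 nt to its 3′ end. The FAT1 stretch nearest the start was itself 17019 to 19121 nt from it. Falls near both ends were thus seen in CELSR1, CELSR2 and CELSR3, but the ends could not be compared in FAT1 or these protocadherins. Over all tested sites of the series 25.7% were called lower. The stretches quoted were picked without a rule set in advance. Reads that cover several sites count at each, so the sites of a stretch are not independent. Whether stretches differ was not tested. Distances are genomic and include introns. Member sites lay slightly closer together than others, with a median of 48 nt to the nearest tested site of the same gene, against 55 nt over all named genes.

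**Figure D4:**
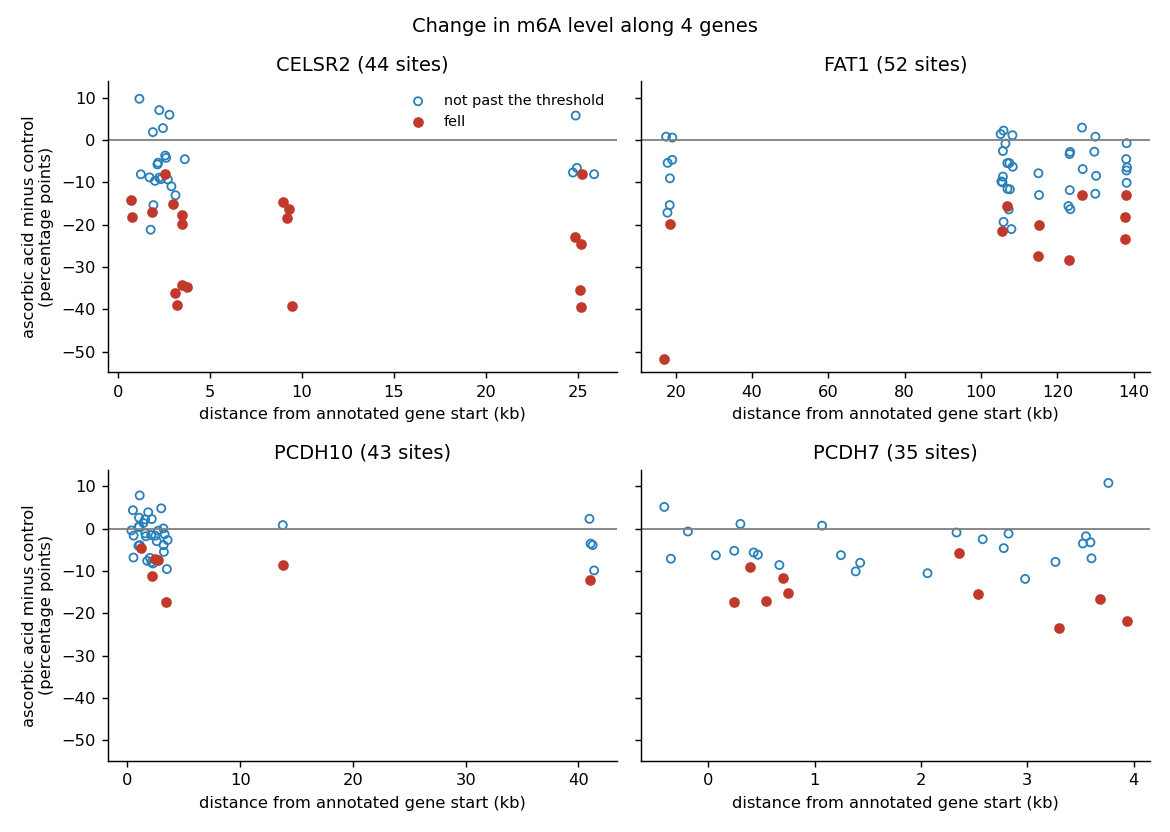
Difference in mean m6A level, ascorbic acid minus control (percentage points, n = 2 each), against distance from the annotated gene start (kb) for the tested sites of CELSR2, FAT1, PCDH10 and PCDH7; filled red points passed the edgeR test. CELSR2 has falls in stretches near both ends and in between. FAT1 has falls in stretches from 17019 nt after the start to near the 3′ end. Both have long spans that held no tested site. Most PCDH10 points lie within 10 points of 0.

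Sites listed in only some libraries could not be tested. Of 710 listed member sites, 276 were in all 4 libraries (30 of them under 20 reads in at least 1), 110 in 3 and 211 in 1. Both ascorbic acid libraries and neither control library listed 32 sites, with a median level of 34.1%. Both control libraries and neither ascorbic acid library listed 23, with a median level of 24.9%. Since a site drops out of a list through few reads as well as through a low level, these counts give no direction. The shares of these patterns over all sites of the series are not given.

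No member gene passed the test of transcript coverage. The authors' coverage value per gene, scaled here between libraries, was available for 18 member genes, and 0 were called lower and 0 higher (limma, adjusted p under 0.05; 0.0422% of 11848 genes were called lower and 0.253% higher). Changes ran from -0.22 to 0.15 on the log2 scale, 9 lower and 9 higher. PCDH7 was the only one lower at an unadjusted p under 0.05 (none was higher; 6.29% of all genes were lower and 8.14% higher at that level). Its scaled coverage was 58.1 and 53.9 with ascorbic acid, against 64.3 and 65.9 in control, a log2 change of -0.22 (SE 0.07, limma adjusted p = 0.225). The 2 control libraries lay above both ascorbic acid libraries. PCDH10 had 98.8 and 98.2 with ascorbic acid, against 101 and 106 in control, and CELSR2 had 64.7 and 65.8, against 66.3 and 71.1 in control. PCDHA4 had 49.5 and 46.4, against 38.4 and 73.5 in control, a spread between the control libraries that was wider than in any other member gene plotted. Without control library 1 it passed as lower (log2 -0.62, limma adjusted p = 0.0293), and without control library 2 the change had the opposite sign and did not pass (log2 0.32, limma adjusted p = 0.123). In such bulk samples, fewer cells with a transcript and less of it per cell cannot be told apart. ACTA2, an actin of contractile cells, had a scaled coverage of 143.6 and 123.6 with ascorbic acid, against 93.8 and 87.3 in control, while the other marker of that class with listed sites, COL1A1, had no value in all 4 libraries. The part of ACTA2-expressing cells in the results was not tested.

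**Figure D5:**
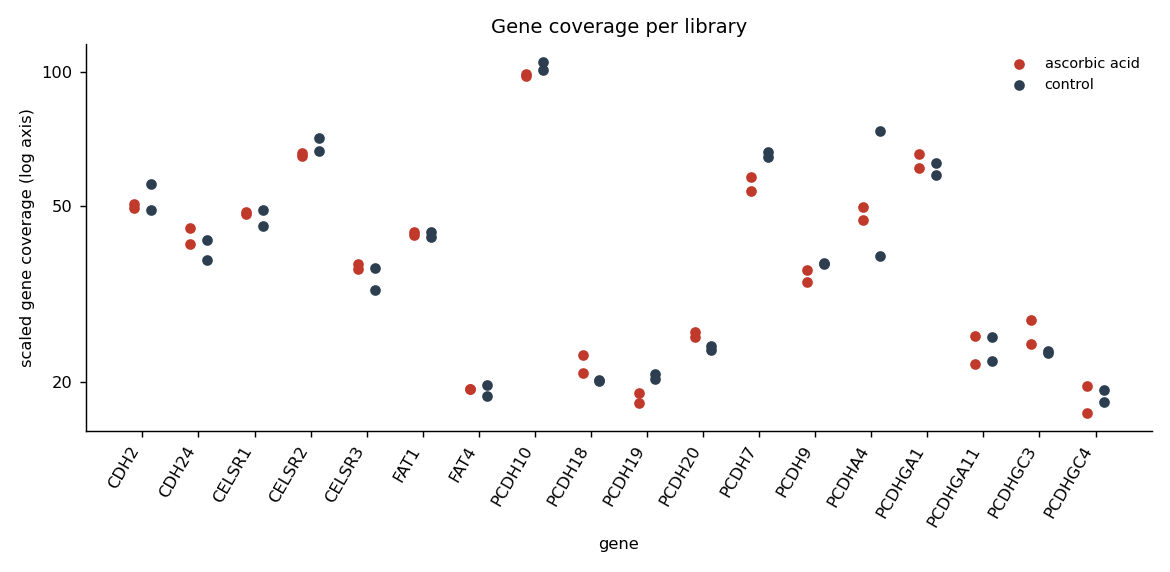
Scaled gene coverage per library (log axis) for the 18 member genes with a value, with ascorbic acid (red) left of control (dark). The points of a gene lie close together, apart from PCDHA4, where the control libraries are at 38.4 and 73.5; PCDH7 is at 58.1 and 53.9 with ascorbic acid and at 64.3 and 65.9 in control.

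Partners of the cadherins were read from a list of 63 genes outside the family. Of these, 49 had tested sites, 33 fell in the summed edgeR test (67.3%, against 56.7% of all genes), none rose and 16 did not pass. Of the catenins and plaque proteins, which tie cadherins to actin and intermediate filaments, 8 of 10 measured genes fell. Of the genes listed as partners of the CELSR, FAT and Dachsous cadherins, most of them planar polarity genes, 8 of 11 fell. Of the protocadherin effectors 6 of 8 fell and of the regulators of the protocadherin clusters 6 of 10. Of the proteases that cut cadherins 2 of 3 fell and of other genes with cadherin repeats 3 of 3. None of the 4 measured repressors of cadherin transcription (TWIST1, SNAI2, ZEB1 and ZEB2) passed. TWIST1 had the smallest p of these, at 68.0% and 70.7% with ascorbic acid against 75.8% and 73.0% in control (adjusted p = 0.0905).

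PKP4, a plakophilin of cell junctions, had the smallest p of the list, with 39.8% and 38.7% under ascorbic acid against 63.5% and 64.2% in control, a log2 odds change of -1.45 (edgeR adjusted p = 3.62e-11). CTNND1, p120 catenin, which holds cadherins at the membrane, had 67.4% and 63.2%, against 83.6% and 85.7% in control, at 1 site. AFDN, afadin, which links nectins to actin, had 29.8% and 28.9%, against 40.6% and 42.4% in control. In each of these genes the groups were well apart, with edgeR adjusted p-values of 1.33e-07 for CTNND1 and 2.81e-08 for AFDN.

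Among the polarity genes, the Dishevelled proteins DVL1 and DVL3 fell, DVL1 to 23.6% and 24.3% with ascorbic acid against 37.6% and 39.5% in control, and DVL3 to 26.5% and 26.2% against 39.5% and 39.0% in control. DVL2 did not pass, at 15.6% and 17.3% with ascorbic acid against 14.6% and 16.6% in control (adjusted p = 0.455). PRICKLE3 fell to 41.3% and 35.5%, against 57.1% and 58.8% in control. WASF1, the WAVE1 subunit of the actin complex that protocadherins recruit, fell to 36.0% and 37.8%, against 48.3% and 50.1% in control. WAPL, which releases the cohesin that chooses clustered protocadherin promoters, fell to 36.6% and 35.7%, against 47.4% and 47.9% in control. The edgeR adjusted p-values of the 5 genes called here ran from 3.95e-09 for DVL1 to 1.64e-06 for WAPL.

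The counts of member sites depended on the libraries and the test more than the counts of genes did. Shares over all tested sites are given here for the tests but not for the left-out libraries. Whether the whole series drops alike without a library is thus not shown. Without ascorbic acid library 2 the number of sites that fell was 39, of which 36 were among the 69, and without control library 2 it was 44, of which 42 were. DESeq2 called 34 member sites lower (11.5% of all sites) and 0 higher (0.00255%), and limma on log2 odds called 43 lower (13% of all sites) and 0 higher (0.0395%). Each of these tools called 7 member genes lower and 0 higher, with backgrounds of 37.1% and 0.0185% for DESeq2 and of 40.9% and 0.176% for limma. The difference of -10.6 points in the median level was -9.55 without control library 2 and -10.6 after correction for the unconverted share of each gene.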

How the data were processed

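Messenger RNA of HEK293T cells was profiled by GLORI in 4 libraries, 2 with ascorbic acid and 2 controls, grouped by their titles. Tools named in the submitters' processing notes are STAR and Trimmomatic 0.39, with builds given as GRCh38 and hg38; which program called sites is not given in sources used here. The authors deposited unscaled read counts at each site, A alone and A with G. The m6A level and the conversion rate are fractions that the authors deposited; the level was recomputed from the counts and agreed within 5e-06. The gene coverage is a signal deposited by the authors whose unit no source defines. The p-value columns are the authors' own test per site, per the file headers, and were used only to describe the lists.

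Sites present in every library on 20 or more reads were tested with edgeR 4.0.16 (quasi-likelihood; library terms, and treatment acting on the A to G odds), over all sites and then over reads summed per gene; reads that cover several sites count at each. Coverage was scaled per library (median of its ratios to each gene's geometric mean), and log2 values were tested in limma 3.58.1 with trended eBayes. Adjusted p-values are two-sided Benjamini-Hochberg values with a threshold of 0.05. The SE of a log2 odds change was derived from the edgeR test, as the absolute change over the square root of its F statistic. The tests were tried on simulated data. Alternatives were a replicate block, each library left out, limma on log2 odds with 0.5 added, DESeq2 1.42.0, other read minimums and no sites 6 nt apart. Others were clusters summed, log2 odds averaged over the sites of a gene and tested in limma, other coverage scalings and correction for unconverted A. Same-numbered libraries are not said to share a culture, so their numbers were not used as pairs in the reported fits. The correlation of their deviations from the group means was -0.00535 over all sites, 0.121 over the member sites and -0.163 for coverage.

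Gene spans and promoter windows are RefSeq's (GRCh38.p14); all 25 member names matched. No genome or transcript annotation was used, so exons and UTRs are not assigned. The members and gene lists were chosen with earlier results of these data known. Named sites are the 10 largest falls in mean level that passed, had 50 or more reads per library and showed no overlap, at most 2 per gene, out of 41 candidates, plus any rise, the site of highest mean level and the deepest site. Values per library are given for genes that passed on 3 or more sites, the gene with most tested sites in each subfamily, CDH2 and up to 8 partner genes of smallest p; others were named after their values were seen. Other software was R 4.3.3, matplotlib 3.10.9, pandas 2.3.3, scipy 1.17.1, numpy 2.4.6 and Python 3.11.15.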

Additional observations from a re-analysis of the deposited data

How the results depend on the processing

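Of the 246 tested member sites, 69 fell. Leaving out 1 library gave 39 to 62, limma on log2 odds 43 and DESeq2 34. A minimum of 50 reads gave 41 of 129 tested sites, and leaving out sites 6 nt apart gave 67 of 239. No read minimum gave 73 of 276, with 68 of the 69 still called. The share of all sites of the series called lower is not given for these read minimums, left-out sites or left-out libraries. With replicate number as a block 73 fell, including all 69, and 7 genes, as without it; the block added no call of a rise. No member site rose except without ascorbic acid library 2, where 1 did (0 to 1 over the left-out libraries): PCDH10 chr4:133152289, with a log2 odds change of 0.90 (edgeR adjusted p = 0.0224; 0.0706 with all libraries). The genes that fell numbered 6 to 8 over all settings. The added genes were PCDH10 without control library 1 or without sites 6 nt apart, and PCDHGC4 with no read minimum (adjusted p = 0.0390). For coverage 0 genes were lower, or 1 (PCDHA4) without control library 1 (0 to 1 over the left-out libraries), and none with a crossed block, chosen after seeing the data. The median level difference was -10.6 points, between -11.6 and -9.53 with 1 library left out, and -8.25 with reads pooled over sites. No value past the test with all libraries changed sign. Of the values not past the test, 7 gene coverages, 4 gene levels (CDH2, PCDH20, PCDHGA1 and PCDHGC3) and 1 site level (PCDH10 chr4:133163068) changed sign under at least 1 alternative, PCDHA4 coverage most widely, at a log2 change of -0.62 without control library 1 and 0.32 without control library 2. Read depth limits single sites, and levels under 10%, or resting on under 5 A reads, were not listed.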
